A study of Homo sapiens with 14 samples.

Results

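The genes described here encode the G protein subunits, their chaperones, the adenylyl cyclases and the RGS proteins, 51 genes in all. Guides were taken as members when the gene symbol at the start of the guide name was on that list, a rule that uses no measured value, although the list was drawn up with earlier results of these data known. Of the 51 genes, 39 lay in sublibraries with a usable bright and dim library, out of 16684 genes compared there. The other 12 lay in sublibrary H4 and have an abundance only, since its top library was not used here.

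The cells were HEK293 FLP-In, of human embryonic kidney origin, expanded from clonal populations that stably carried the delta opioid receptor fused to the peroxidase APEX2 (pUBC-SSF-DOR-APEX2) and the repressor dCas9-KRAB-BFP. Each sublibrary (H1 to H7) of the hCRISPRi-v2-top5 guide library was transduced on its own at a multiplicity near 0.2, and the cells were kept for 8 days. All cells, those of the top and of the bottom quartile alike, received 10 µM DADLE, an opioid peptide agonist, for 90 minutes, after an earlier selection in 0.75 µg/ml puromycin for 3 days. They then received 100 µM Amplex UltraRed, which the peroxidase turns fluorescent, for 15 minutes, 50 µM H2O2 for 1 minute to start the reaction, and 1 mM sodium azide to stop it. The top (bright) and bottom (dim) quartiles were sorted and their guides counted, with 1 library per group, so that no difference has a replicate check. No unstimulated cells were analysed here, so receptor loss after agonist and receptor or peroxidase level before it cannot be told apart. Guide counts from genomic DNA do not show which of these genes the cells express or how far each was repressed.

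The delta opioid receptor signals through heterotrimeric G proteins of the inhibitory (Gi/o) class. On activation the alpha subunit exchanges GDP for GTP and parts from the beta-gamma dimer; the alpha subunit then lowers adenylyl cyclase activity and beta-gamma acts on effectors of its own. RGS proteins speed GTP hydrolysis and end the signal, and chaperones help to fold and assemble the subunits.

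Total counts in the 12 compared libraries ran from 18054418 to 34636612, and the 204 member guides that passed the count filter had a median of 1922 counts in the top and 1557 in the bottom libraries. For each guide log2(top/bottom) was taken relative to the median non-targeting guide of the sublibrary, and guides were averaged per gene start, here called a target; a positive value means more frequent in bright cells. Each mean was set against non-targeting guides by permutation (two-sided), and p-values were adjusted by the Benjamini-Hochberg method over all 18116 targets, with a threshold of 0.05. The test compares the libraries of 1 sort. It does not speak to repeated sorts.

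Guides to PDCL, the phosducin-like cochaperone that helps the chaperonin CCT assemble G beta-gamma dimers, were enriched in bright cells, and no other compared member passed the test at its first start. PDCL guides were 1.73-fold more frequent in bright than in dim cells of H3, with a mean log2 ratio of 0.79 ± 0.25 (SD, n = 5 guides; permutation adjusted p = 0.000661, the smallest value the draws allowed). This is 1 of 39 members called higher in the top library at a first start, or 2.56%. Of all genes at their primary start 427 of 16684 were called, and of all targets, second starts included, 2.38%. In the bottom direction 0 of 39 members were called at a first start, against 266 of 16684 genes and 1.52% of all targets. The second start of GNAT1, described below, was called in that direction. Shares of all targets given below also include second starts. Unadjusted permutation p was under 0.05 for 1 member in the top direction (PDCL) and 1 in the bottom (GNAT2, adjusted p = 0.331). How many of all targets fell under this unadjusted threshold was not counted, so unadjusted counts here and below lack a library share. With edgeR, which could be run on the 38 members with 5 guides, PDCL alone was called. At the adjusted threshold the share of members called in the top direction is close to that of the whole library. That share differed between sublibraries, however, and the members are not spread evenly over them. In the top direction 124 of 3209 targets were called in H2 and 139 of 3323 in H3, against 12 of 3946 in H7. H2 and H3 hold 20 and 10 of the compared members. The median over the 39 members was 0.03 on the log2 scale, beside 0.01 over all genes.

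The PDCL guides lay at 5 separate positions, and every guide gave the same direction. The guide at position 125590440 had 2431 counts in the top and 1540 in the bottom library, a log2 ratio of 0.46. The next, at 125590523, had 1922 counts in the top and 873 in the bottom library (0.94), and that at 125590752 had 1259 and 644 in top and bottom (0.77). The remaining guides, at 125590807 and 125590835, had 1227 and 1513 counts in the top and 496 and 834 in the bottom library (1.11 and 0.66). All 5 lay above 0.40, the upper bound of the central 95% of non-targeting guides in H3. Without the guide farthest from 0 the mean was 0.71. In H3 the gene ranked 37 from the top among 3323 targets. Positions are those in the guide names, and no source used here gives their build.

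The files hold guide names and no guide sequences, so the sequence just upstream of the one called gene is shown instead. The stretch below is the 250 bases before the PDCL start on chromosome 9, minus strand, chr9:122828589-122828838 in GRCh38.p14, from RefSeq's promoter set, read 5′ to 3′ along the gene. Capitals mark each GG and CC, since GG is the invariant part of the motif that Cas9 of Streptococcus pyogenes needs beside a target, here on either strand; overlapping pairs are merged.
PDCL: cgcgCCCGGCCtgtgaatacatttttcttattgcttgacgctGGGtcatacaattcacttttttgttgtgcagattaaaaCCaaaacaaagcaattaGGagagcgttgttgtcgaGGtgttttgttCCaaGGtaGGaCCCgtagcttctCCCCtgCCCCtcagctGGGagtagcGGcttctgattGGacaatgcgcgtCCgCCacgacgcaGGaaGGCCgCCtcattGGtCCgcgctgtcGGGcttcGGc
The window holds 35 such pairs, against a median of 48 in the first 250 bases of the 35116 promoters in the set, and its GC content is 53.6%, against a median of 58.0%. These letters describe the window and do not place the screened guides in it.

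**Figure D1:**
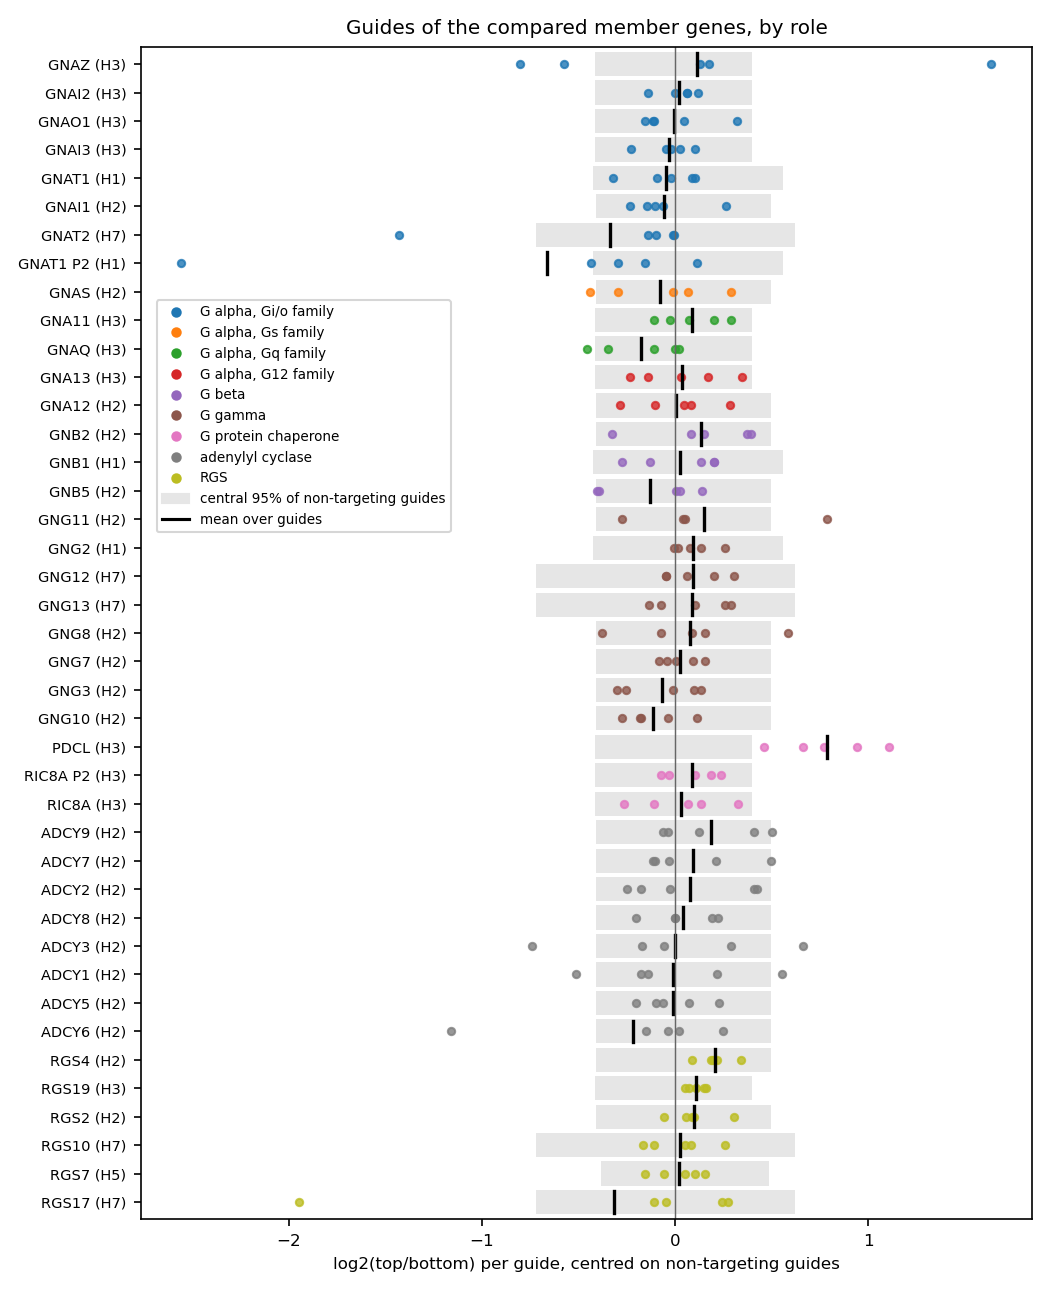
Log2(top/bottom) of every member guide (coloured points) with the mean over guides (black line), by role and by mean within a role; grey bars span the central 95% of non-targeting guides of the same sublibrary, named in brackets, and P2 marks a second start. All 5 PDCL guides lie above the grey bar, while single guides of GNAT1 P2, RGS17, GNAT2, ADCY6 and GNAZ lie far from the rest of their gene.

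Among the 7 alpha subunits of the Gi/o class, the class through which the receptor signals, none passed at its first start. With 2.38% of all targets called in the top and 1.52% in the bottom direction, 0 of 7 is no result about this class. GNAI1, GNAI2 and GNAI3, the broadly expressed inhibitory subunits, had means of -0.06 ± 0.19, 0.02 ± 0.10 and -0.03 ± 0.12 (SD, n = 5 guides each). All 15 of their guides lay within the non-targeting range. The smallest mean that was called among targets with 5 guides was 0.31 in H3, the sublibrary of GNAI2 and GNAI3. It was 0.34 in H2, that of GNAI1, so changes well below these were not detectable here. In H1, the sublibrary of GNAT1, GNB1 and GNG2, it was 0.50 in the top and -0.48 in the bottom direction. In H7, that of GNAT2 and RGS17 among others, the same values were 0.55 and -0.54. GNAO1, the subunit abundant in neurons, had -0.00 ± 0.20. At an unadjusted permutation p under 0.05, 1 of the 7 (GNAT2) lay in the bottom direction, and edgeR called 0. GNAT1, the transducin of rod photoreceptors, had -0.05 ± 0.17 at its first start.

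GNAZ, the Gi/o subunit that pertussis toxin does not modify, showed guides that disagreed. Its mean was 0.11 ± 0.95 (SD, n = 5 guides; permutation adjusted p = 0.763), and its SD was 4.44 times that of the non-targeting guides. The guide at 23412924 had 884 counts in the top and 247 in the bottom library, a log2 ratio of 1.64. Its neighbours at 23412908 and 23413095 went the other way, with 1757 counts in the top and 2281 in the bottom library (-0.57) and with 1395 in the top and 2127 in the bottom (-0.80). The last guides had 2750 and 2432 counts in the top and 2191 and 1879 in the bottom library (0.13 and 0.18). Guides outside the non-targeting range thus lay on both sides of 0.

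GNAT2, the transducin of cones, had the lowest mean of a first start, -0.34 ± 0.61 (SD, n = 5 guides), and its mean rested on 1 guide. That guide, at 110155278, had 81 counts in the top and 214 in the bottom library (-1.43). The other 4 had 265, 1470, 1514 and 3549 counts in the top and 276, 1574, 1487 and 3463 in the bottom library, with log2 ratios between -0.14 and -0.00. Their mean was -0.06.

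The second start of GNAT1 was called, in the bottom direction, at -0.67 ± 1.08 (SD, n = 5 guides; permutation adjusted p = 0.0283). Here too 1 guide of low count stood apart: at 50230300 it had 53 counts in the top and 254 in the bottom library (-2.56). The others had 1817, 520, 2535 and 1265 counts in the top and 1973, 512, 2263 and 939 in the bottom library, with log2 ratios of -0.44, -0.29, -0.15 and 0.11. Without the farthest guide the mean was -0.19 and the permutation adjusted p 0.297. The call also ended with the median over guides (permutation adjusted p = 0.162), by rank sum, at a minimum of 100 counts in both libraries and with edgeR. The first start, whose 5 guides all lay within the non-targeting range, had a mean of -0.05.

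**Figure D2:**
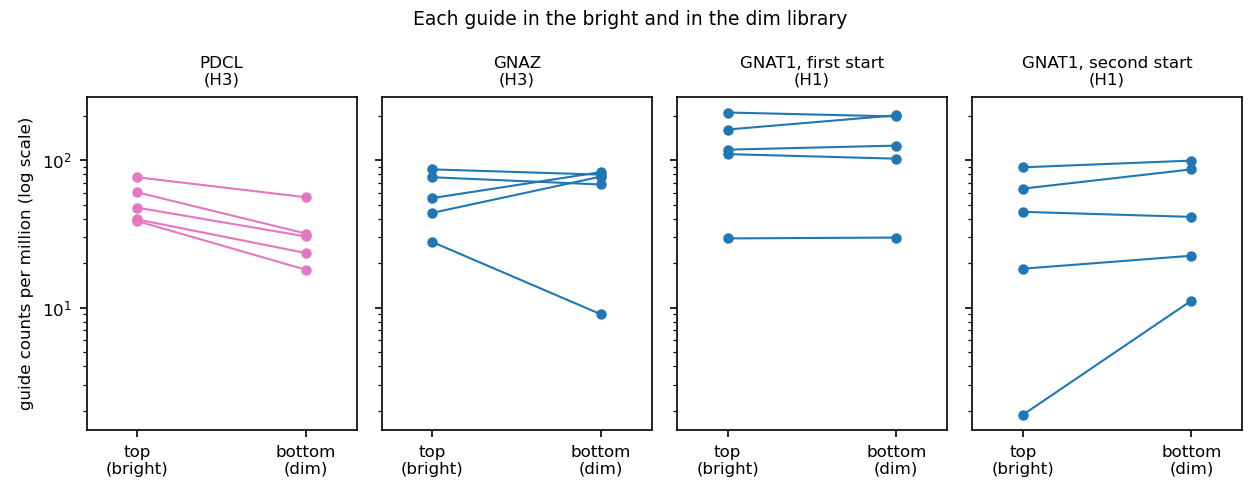
CPM of each guide, its count scaled to the library total (log axis), in the bright (left) and dim (right) library for PDCL and GNAZ in H3 and for both starts of GNAT1 in H1; lines join the values of 1 guide. All 5 PDCL lines fall toward the dim library, GNAZ lines cross, and the second start of GNAT1 holds 1 steep line at 53 and 254 counts.

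GNAS, which encodes the alpha subunit that stimulates adenylyl cyclase, did not pass at -0.08 ± 0.29 (SD, n = 5 guides). Its guides had 1810 counts in the top and 1931 in the bottom library (-0.44), 2438 and 2352 (-0.29), 1625 and 1287 (-0.01), 1099 and 826 (0.07), and 797 and 512 (0.29). They spread to both sides of 0. The guides with the lowest values lie 3 bases apart. GNAL, the related subunit of olfactory neurons and striatum, is in H4.

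In the Gq class, whose alpha subunits activate phospholipase C beta, GNAQ had -0.18 ± 0.21 and GNA11 0.09 ± 0.16 (SD, n = 5 guides each). GNAQ guides had 1906 counts in the top and 2284 in the bottom library (-0.46), 163 and 181 (-0.35), 3089 and 2906 (-0.11), 1922 and 1678 (-0.00), and 1874 and 1611 (0.02). The lowest guide lies 4 bases from the guide at -0.00. GNA12 and GNA13, the alpha subunits of the G12 class, had 0.01 ± 0.21 and 0.04 ± 0.23 (SD, n = 5 guides each). GNA13 guides had 844 counts in the top and 579 in the bottom library (0.35), 3584 and 2780 (0.17), 2101 and 1793 (0.03), 1673 and 1608 (-0.14), and 2151 and 2207 (-0.23). None of these passed the test.

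Of 5 beta subunits, 3 were compared and 0 passed, also at an unadjusted permutation p under 0.05 or with edgeR. Beside 2.38% of all targets called in the top and 1.52% in the bottom direction, 0 of 3 is no result about beta subunits. GNB1 had 0.03 ± 0.22, GNB2 0.14 ± 0.29 and GNB5, the divergent beta subunit that pairs with RGS7 and its relatives, -0.13 ± 0.26 (SD, n = 5 guides each). GNB2, farthest from 0 of these, had 1560 counts in the top and 933 in the bottom library (0.40), 1348 and 818 (0.37), 2348 and 1663 (0.15), 1288 and 957 (0.08), and 2428 and 2396 (-0.33). Its highest guides lie 3 bases apart on the same strand and address nearly the same site.

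Of 10 gamma subunits, the lipid-anchored partners of beta, 8 were compared and 0 passed, also at an unadjusted permutation p under 0.05. By edgeR 0 of the 7 it tested (all but GNG11) were called. Beside 2.38% of all targets called in the top and 1.52% in the bottom direction, 0 of 8 is no result about gamma subunits. GNG2, GNG12, GNG13, GNG8 and GNG7 had 0.10, 0.09, 0.09, 0.08 and 0.03, and GNG3 and GNG10 had -0.07 and -0.11. GNG11 was the farthest at 0.15 ± 0.45 (SD, n = 4 guides), with a guide at 438 counts in the top and 199 in the bottom library (0.79). The other GNG11 guides had 3167, 215 and 817 counts in the top and 2403, 164 and 778 in the bottom library (0.05, 0.04 and -0.28). The last guide was left out, at 39 counts in the top and 24 in the bottom library.

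RIC8A, a chaperone of alpha subunits of the Gi, Gq and G12 classes, had a mean of 0.03 ± 0.23 for the first start and 0.09 ± 0.13 for the second (SD, n = 5 guides each). The guides of the first start lie within 37 bases of each other, and those of the second within 21, so that each set addresses a single short stretch. BET1L, whose guides come within 345 bases, had 0.08, and BSCL2, within 730 bases of GNG3, had 0.07. RIC8B, which serves the stimulatory alpha subunits, is in H4.

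None of the 8 adenylyl cyclases passed, also at an unadjusted permutation p under 0.05 or with edgeR. Beside 2.38% of all targets called in the top and 1.52% in the bottom direction, 0 of 8 is no result about cyclases. Of the cyclase means, 4 lay above and 4 below 0. These enzymes make cAMP, and Gi alpha subunits inhibit several of them. ADCY6 had the lowest mean, -0.22 ± 0.55 (SD, n = 5 guides; permutation adjusted p = 0.406). A single guide at 341 counts in the top and 601 in the bottom library (-1.16) set it, since the other 4 averaged 0.02. Those had 2998, 3516, 1594 and 1199 counts in the top and 2619, 2842, 1236 and 795 in the bottom library (-0.15, -0.04, 0.02 and 0.25). ADCY9, the isoform that forskolin stimulates poorly, had the highest mean, 0.19 ± 0.26. Its guides had 928 counts in the top and 516 in the bottom library (0.50), 2821 and 1672 (0.41), 1182 and 853 (0.12), 2789 and 2251 (-0.04), and 2319 and 1904 (-0.06).

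ADCY1 and ADCY8, which calcium and calmodulin stimulate, had -0.01 ± 0.41 and 0.04 ± 0.17, and ADCY3, the cyclase of olfactory neurons, had -0.00 ± 0.52 (SD, n = 5 guides each). ADCY3 held guides on both sides of the non-targeting range, at 1560 counts in the top and 775 in the bottom library (0.66) and at 2085 and 2739 (-0.74). ADCY5, which with ADCY6 is inhibited by calcium, had -0.01 ± 0.17. ADCY2 and ADCY7, which beta-gamma can stimulate, had 0.08 ± 0.32 and 0.09 ± 0.26 (SD, n = 5 guides each).

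Of 10 RGS genes, 6 were compared and 0 passed, also at an unadjusted permutation p under 0.05 or with edgeR. Beside 2.38% of all targets called in the top and 1.52% in the bottom direction, 0 of 6 is no result about RGS genes. RGS4, which acts on Gi and Gq subunits, had the highest uncalled mean of all members, 0.21 ± 0.09 (SD, n = 5 guides; permutation adjusted p = 0.417). Its guides had 1719 counts in the top and 1066 in the bottom library (0.34), 2426 and 1639 (0.22), 2171 and 1490 (0.20), 2312 and 1601 (0.18), and 3787 and 2805 (0.09). All 5 lay above 0 and all lay within the non-targeting range. RGS19, also known as GAIP for its interaction with G alpha subunits, had the smallest SD of any member, with a mean of 0.11 ± 0.05 and guides between 0.05 and 0.16. Its nearest guides to another gene lie 124 bases from those of OPRL1, the nociceptin receptor, whose second start had 0.14 ± 0.18 (SD, n = 5 guides; permutation adjusted p = 0.712).

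RGS17, which acts on Gi/o subunits, Gz (the product of GNAZ) among them, had -0.32 ± 0.93 (SD, n = 5 guides). Its value came from a guide with 24 counts in the top and 93 in the bottom library (-1.95), the fewest counts of any member guide tested. The others had 582, 906, 478 and 100 counts in the top and 469, 744, 480 and 105 in the bottom library (0.27, 0.25, -0.04 and -0.11), and averaged 0.09. RGS2, with a preference for Gq, had 0.10, RGS10 0.02 and RGS7, the partner of GNB5, 0.02.

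Counted singly, 12 of 204 member guides (5.88%) lay above the central 95% of non-targeting guides, against 4.64% of all targeting guides, and 5 of those 12 were PDCL guides. Below that range lay 11 (5.39%), against 4.28%. The SD over the guides of a member had a median of 0.89 times the non-targeting SD, against 0.86 over all targets. In 5 of 41 member targets (12.2%), against 5.83% of all targets, the SD exceeded 2 times the non-targeting SD: GNAZ, GNAT1 at its second start, RGS17, ADCY6 and ADCY3.

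In the wider pathway the counts of calls stand beside 2.38% of all targets in the top and 1.52% in the bottom direction, and the 1 call in 3 lists is no result about these lists. Of 20 compared genes among other G protein, cyclase and RGS genes, 0 passed in either direction, with 1 in the top direction at an unadjusted permutation p under 0.05 and 0 calls by edgeR among the 17 it tested. RGS9, the RGS protein of photoreceptors and striatum, had 0.33 ± 1.05 and RGS5 -0.19 ± 0.14 (SD, n = 5 guides each). Of 18 effectors of beta-gamma and Gq, 0 passed, also at an unadjusted permutation p under 0.05 or with edgeR, with PRKCE at -0.23 and PLCB1 at -0.20 farthest from 0. Of 24 genes for cAMP effectors and breakdown, 1 was called in the top direction and 0 in the bottom direction (1 and 2 at an unadjusted permutation p under 0.05, and CREB1 alone by edgeR), with a median of -0.01. PRKAR2A, a regulatory subunit of protein kinase A, had -0.27 ± 0.33 (SD, n = 5 guides) and did not pass.

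The called gene was CREB1, the transcription factor that protein kinase A phosphorylates, at 0.46 ± 0.15 (SD, n = 5 guides; permutation adjusted p = 0.00405). Its guides had 3895 counts in the top and 2035 in the bottom library (0.59), 2865 and 1552 (0.54), 2812 and 1555 (0.51), 2017 and 1160 (0.45), and 954 and 649 (0.21). All 5 lay above 0, and CREB1 passed under each of the 12 alternative settings. The guides lie within 61 bases of each other.

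PDCL acts with CCT, and the 8 CCT subunits, TCP1 included, were all called higher in the top library, with means from 0.57 to 1.82 and a median of 1.29, against 2.38% of all targets called in that direction. By edgeR 5 of the 8 were called, without CCT5, CCT7 and CCT8, against 260 of 17071 targets in both directions together. CCT5, CCT7 and CCT8 had 0.58 ± 0.94, 0.93 ± 0.84 and 0.57 ± 0.61 (SD, n = 5 guides each). Their lowest guides lay at -0.19, -0.33 and -0.36, while each other CCT subunit had all 5 guides above 0. CCT4 and CCT3 were farthest from 0, at 1.82 ± 0.13 and 1.78 ± 1.06 (SD, n = 5 guides each). The other phosducin-like genes, named after their values were seen, did not pass: PDCL3, PDCL2, TXNDC9 and PDC had 0.15, 0.09, 0.03 and 0.03. PDCL lay between CCT5 (0.58) and CCT7 (0.93). The difference between PDCL and these genes was not tested, and neither was a shared cause. The CCT list, like the members, was chosen with earlier results of these data known.

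**Figure D3:**
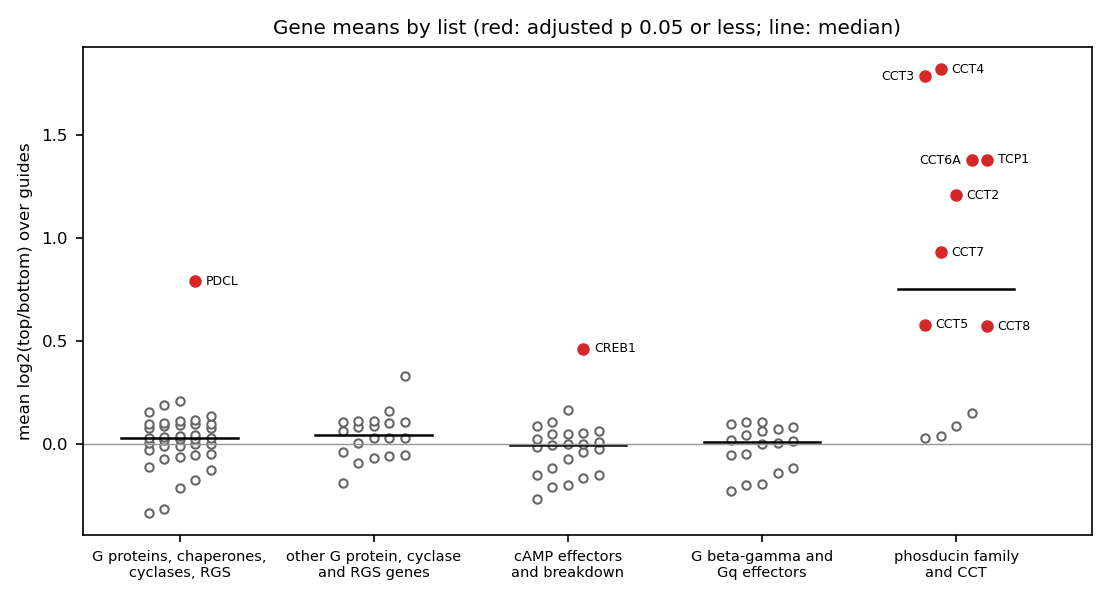
Mean log2(top/bottom) of each gene at its first start, by list, with called genes filled in red and the list's median as a line. In the member list PDCL alone is called, at 0.79, in the cAMP list CREB1 alone, at 0.46, and the 8 CCT subunits lie between 0.57 and 1.82.

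How often the guides were seen was taken from the sum of the same top and bottom counts that form the ratio. It is therefore no independent readout. Abundance, the log2 of a guide's summed counts over the non-targeting median, averaged -0.48 ± 0.48 for PDCL (SD, n = 5 guides), against a median of -0.08 over members and -0.11 over all targets. Of the beta subunits, GNB1 had -0.70 ± 0.82 and GNB2 -0.26 ± 0.53. At -1 or less lay 3 of 41 member targets (7.32%), against 6.65% of all targets: GNG11 at -2.41 ± 2.40 (SD, n = 5 guides, with the guide left out of the ratio), RGS17 at -2.13 ± 1.65 and the second start of GNAT1 at -1.19 ± 1.61. In each of these, guides differed by more than 3 on the log2 scale, and GNG11 and GNAT1 each had a guide above the non-targeting median, while all 5 RGS17 guides lay below it, between -4.29 and -0.48. Abundance also carries each guide's share in the plasmid pool, which was not measured here.

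The 12 members in H4 were counted in the bottom library alone, which held 16805160 counts. Abundance ran from -0.90 ± 1.07 for GNB4, a beta subunit, to 0.66 ± 0.68 at a start of RGS3 (SD, n = 5 guides each). GNB4 guides had 1385, 1297, 1050, 421 and 262 counts, and those of RGS12, the next lowest at -0.65, had 1732, 1073, 944, 810 and 350. RGS16, GNG4, GNA15, GNA14, RGS14 at its first start, GNB3 and GNG5 lay between -0.30 and -0.06, GNAL had -0.12 and -0.03 at its 2 starts, and RIC8B had 0.25. No ratio could be formed for these genes, and abundance says nothing of the sort.

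**Figure D4:**
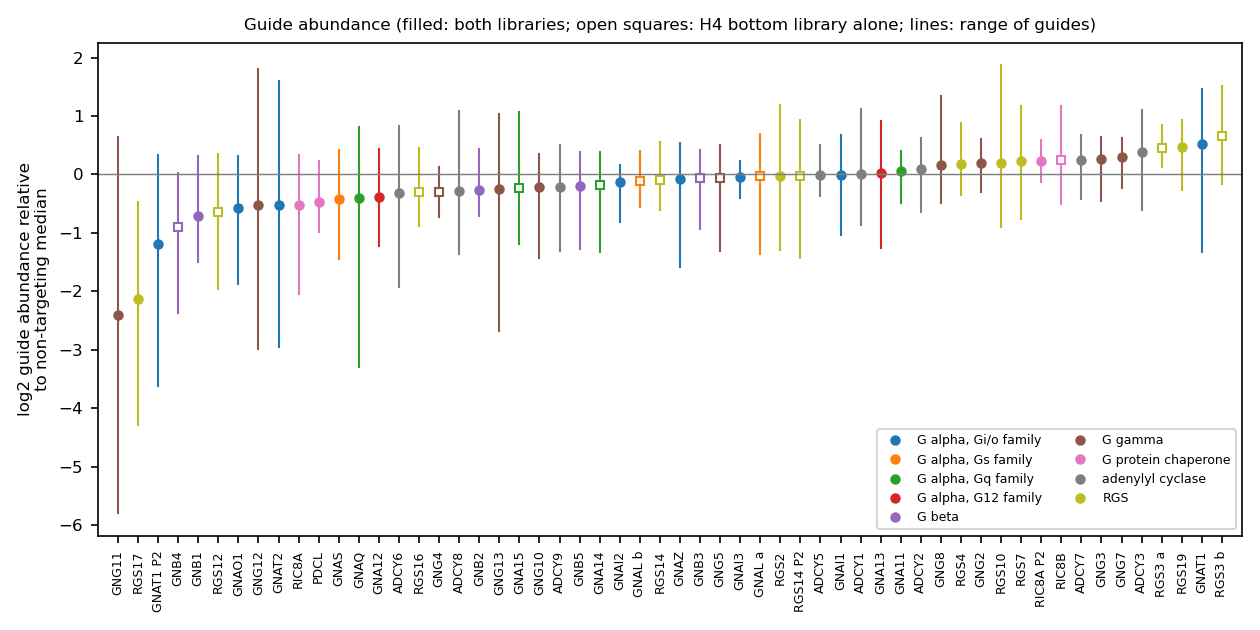
Mean log2 guide abundance of each member start relative to the non-targeting median, ordered by mean; vertical lines span the lowest to the highest guide, and open squares are H4 genes, seen in the bottom library alone (a and b are separate transcript starts). GNG11, RGS17 and the second start of GNAT1 lie lowest, with wide ranges over guides.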

How the data were processed

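Guide counts were analysed in the top and bottom libraries of 6 sublibraries, and in H4 bottom for abundance. The authors deposited raw counts, 1 whole number for each guide, with no normalization. The submitters' processing notes name Bowtie, without a version; the build and settings are not stated there. The H4 top table breaks off within a guide name and was not used. Groups followed the titles, 1 library each. Permutation p-values therefore set each mean against the pooled spread of its own and the non-targeting guides, not against a spread between sorts.

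Counts were raised by 1 and divided by the library total; ratios were centred on the non-targeting median (241 to 308 guides). A guide needed 50 counts in either library, which kept 91088 of 91463, and a target 3 guides. Each mean was compared with 100000 random draws from its own and the non-targeting guides (smallest p 1e-05), across all genes. A gene was taken at its primary start. edgeR 4.0.16, with guides as blocks, was an alternative for targets with 5 guides; its spread is that among the guides of a target. PCR reads are not independent molecules, so counts understate the error. Neighbours within 1000 bases were found by symbol in a RefSeq table of GRCh38.p14 (18814 of 18905 symbols matched, names and chromosomes only), and 42 of 51 members had a RefSeq promoter. Members and lists were chosen with earlier results of these data known. Every member is named; guide counts are given for called members, the 3 uncalled farthest on each side of 0, the farthest of each role, and, chosen after their values were seen, GNAZ, ADCY3 and CREB1.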

Additional observations from a re-analysis of the deposited data

How the results depend on the processing

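Under the 12 alternatives in pseudocount, count filter, scaling, summary, test, adjustment and shared guides, PDCL stayed the 1 called member at a first start. Its log2 ratio ran from 0.71 to 0.80 and its adjusted p from 0.000326 to 0.00507, the highest with edgeR's quasi-likelihood test. The members' median ran from 0.01 to 0.03. Over all targets the count of calls was 706 and fell to 260 of 17071 with edgeR (157 enriched in bright and 103 in dim cells, against 431 and 275); the cause was not tested. The call of the second start of GNAT1 ended under 5 of 12 alternatives, with edgeR at an adjusted p of 0.669. The guides of RGS17, GNAT1 and GNAT2 farthest from 0 had 24, 53 and 81 counts in the top and 93, 254 and 214 in the bottom library, where counting error is larger; whether depth set their values was not tested. No paired analysis was possible because each group holds 1 library. No library could be left out for the same reason.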

Other observations

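These pairs were chosen after their values were seen. Guides of 1 gene that address nearly the same site did not always give like values. Among the member guides, 40 neighbouring pairs in 27 targets lay within 20 bases of each other on the same strand. In GNAZ, the guides at 23412908 and 23412924, 16 bases apart, had -0.57 and 1.64, and those at 23413095 and 23413104, 9 bases apart, had -0.80 and 0.13. In GNG8 a pair 5 bases apart had -0.38 and 0.58, with 1259 counts in the top and 1287 in the bottom library for the lower guide and 1797 and 943 for the higher. In ADCY3 a pair 5 bases apart had -0.06 and -0.74. The pairs of GNB2 and GNAS that lay 3 bases apart had 0.37 and 0.40, and -0.29 and -0.44. PDCL had no such pair. The causes were not tested.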
